A study of Mus musculus with 6 samples.

Results

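The t-complex is a stretch of proximal mouse chromosome 17 known from t haplotypes, variant chromosomes that males transmit to more than their share of offspring. Several of its genes were named as t-complex proteins after RNAs abundant in testis. This account follows 6 genes with such names, taken from the 29333 genes of the expression table by symbol: Tcp10a, Tcp10b and Tcp10c, which are near-identical copies, Tcp11, and the paralogs of Tcp11 called Tcp11l1 and Tcp11l2. The file places 4 of them on chromosome 17 (Tcp10a, Tcp10b, Tcp10c and Tcp11), Tcp11l1 on chromosome 2 and Tcp11l2 on chromosome 10. The family was picked with its values in the knockout and control comparison in view, so those values are a description here and carry no test.

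Whole testes were collected from mice at postnatal day 16 and their RNA was sequenced. The labels list 3 samples per group. The knockout group is Hsf5-/-, and the control group is called wild type in the labels, while the design text also allows Hsf5+/- animals in it. HSF5 is a member of the heat shock factor family expressed in spermatocytes. The labels state neither the strain nor the nature of the deletion, and they do not say that each sample came from a separate animal, so any p-value measures only the spread between these libraries. Control 1, control 2, knockout 1 and knockout 3 were analysed, with 16209093 to 18557898 recovered reads each. Control 3 and knockout 2 were not analysed here.

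The libraries held markers of germ and somatic cells of the testis. Summed markers of pachytene and diplotene spermatocytes, the most advanced germ cells usual at this age, ran from 61737 to 92578 normalised reads in the controls and from 18114 to 23029 in the knockouts. limma called 15 of 15 lower (Benjamini-Hochberg adjusted p under 0.05), led by Adam3 (log2 fold change -5.90), Pou5f2 (-5.63) and Spata16 (-4.44). Of all tested genes it called 13.5% lower and 3.28% higher. The marker lists were chosen with earlier results of these data known, so their counts are a description. The pachytene markers also differed between the controls, with a median log2 ratio of control 2 over control 1 of 0.71. The Leydig markers did too, with a median of 0.53. Their sums were 3123 and 6067 in controls 1 and 2, and 4347 and 2968 in knockouts 1 and 3. Among 12 markers of early meiotic prophase 2 were called lower, and the summed level was 41740 and 46741 in the controls against 42000 and 35033 in the knockouts. Of the spermatogonial markers 3 of 10 were higher and 1 lower, of the Sertoli markers 4 of 11 were higher, of the spermatid markers 2 of 4 were lower, and 0 tested markers of Leydig cells (of 6), macrophages (of 5), endothelium (of 4) or peritubular myoid cells (of 3) were called by limma, edgeR or DESeq2. At an unadjusted p under 0.05 limma found 1 of the Leydig markers lower and 0 of the others changed. Without the filter on low values, limma called 7 of the 15 pachytene markers, 1 spermatid marker and no marker of the other types. Without its mean-variance trend it called no marker of any type. Without control 2, 11 of the 15 pachytene markers were called and no spermatogonial or Sertoli marker. The protamine genes Prm1 and Prm2, which mark spermatids, were under the filter on low values. In such bulk samples, fewer cells of a type and less RNA per cell cannot be told apart. Hsf5 itself had normalised read counts of 2541 and 3147 in the controls and 1926 and 1602 in the knockouts. Both knockouts were below both controls, and whether the counted exons lie in the deleted part is not known here.

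TCP10 proteins are testis proteins that share their C-terminal domain with the centriole assembly factor CENPJ, in which that domain binds STIL. The mouse copies were once candidates for the t-complex responder, the locus at the centre of transmission distortion. TCP11 is a testis protein linked to cyclic AMP signalling and to the function of the sperm tail. TCP11L1 and TCP11L2 carry the same conserved domain as TCP11.

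The Tcp10 copies are so alike that the sequence before their starts can be read as 1 promoter in 3 places. The RefSeq promoter table (build GRCm38.p6, 250 bases before to 50 after each annotated start) held windows for all 6 genes, 3 of them for Tcp11. Coordinates are of that build and not of mm39, which the submitters' processing notes name. The 250 bases before the start are shown for the 3 Tcp10 copies, since these genes share sequence and were all far lower in the knockouts. They are also shown for 2 of the windows of Tcp11, called A and B here. The other window of Tcp11 overlaps window A. The stretches shown lie at chr17:7324410-7324659 (plus strand) for Tcp10a, chr17:13060861-13061110 (plus) for Tcp10b, chr17:13354322-13354571 (plus) for Tcp10c, and chr17:28080640-28080889 and chr17:28079765-28080014 (minus) for Tcp11. Capitals mark the letters of a motif searched for on both strands, described after the sequences.
Tcp10a: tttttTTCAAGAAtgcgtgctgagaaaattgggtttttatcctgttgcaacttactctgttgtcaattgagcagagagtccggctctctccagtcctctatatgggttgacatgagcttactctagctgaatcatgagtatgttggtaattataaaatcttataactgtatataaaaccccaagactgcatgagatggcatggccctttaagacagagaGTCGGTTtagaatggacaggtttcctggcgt
Tcp10b: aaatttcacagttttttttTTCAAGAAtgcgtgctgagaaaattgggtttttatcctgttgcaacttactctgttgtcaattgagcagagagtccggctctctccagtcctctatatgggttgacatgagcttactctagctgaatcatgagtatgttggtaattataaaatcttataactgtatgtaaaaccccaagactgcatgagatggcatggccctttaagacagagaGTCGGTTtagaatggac
Tcp10c: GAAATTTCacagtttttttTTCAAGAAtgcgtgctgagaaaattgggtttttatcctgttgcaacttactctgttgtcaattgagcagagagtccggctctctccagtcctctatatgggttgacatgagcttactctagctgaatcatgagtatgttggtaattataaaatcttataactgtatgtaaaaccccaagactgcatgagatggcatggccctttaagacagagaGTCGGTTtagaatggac
Tcp11 window A: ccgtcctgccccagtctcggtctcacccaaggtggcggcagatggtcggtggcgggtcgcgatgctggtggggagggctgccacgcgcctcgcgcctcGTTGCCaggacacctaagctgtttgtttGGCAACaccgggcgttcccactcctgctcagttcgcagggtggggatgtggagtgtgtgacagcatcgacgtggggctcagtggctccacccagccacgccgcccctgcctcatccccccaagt
Tcp11 window B: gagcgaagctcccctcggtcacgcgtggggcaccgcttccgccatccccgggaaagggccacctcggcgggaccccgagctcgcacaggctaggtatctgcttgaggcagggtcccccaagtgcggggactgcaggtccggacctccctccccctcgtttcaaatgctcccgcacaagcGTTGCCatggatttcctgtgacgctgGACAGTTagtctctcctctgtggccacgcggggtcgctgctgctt

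In the full 300-base windows, Tcp10b and Tcp10c were identical at 291 of 291 aligned bases, apart from 9 bases in gaps. Tcp10a matched Tcp10c at 284 of 286 aligned bases with no gap, and Tcp10b at 284 of 286 with 8 bases in gaps. All 3 copies held TTCAAGAA, a match to TTCNNGAA, which is an inverted pair of heat shock element units. Counted from the annotated start, it began at -245 in Tcp10a and at -231 in Tcp10b and Tcp10c. The share of all 32851 promoter windows with TTCNNGAA was 8.52%. Because the copies share the whole stretch, this is 1 occurrence and not 3. The window of Tcp10c also held GAANNTTC, as GAAATTTC at its first base, at the edge of what the window covers. The window of Tcp10b begins with AAATTTC, the same letters without the first, and that of Tcp10a begins further in. Whether Tcp10a and Tcp10b hold this match just outside their windows is therefore not known here. GAANNTTC was in 7.86% of all windows. The 3 copies also held GTCGGTT, which is AACNGNC (a MYB motif) on the other strand, at -31 in Tcp10a and at -17 in the others. AACNGNC was in 32.8% of all windows.

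The windows of Tcp11 had no match to either heat shock pair. Window A held GTTGCC, the core of the sites of the RFX factors of ciliary genes, once on each strand, at -152 and -124. Window B held GTTGCC at -71 and a match to AACNGNC at -45. GTTGCC was in 12.5% of all windows. The window of Tcp11l2 held TTCNNGAA at 2 places, as TTCAAGAA and as TTCCCGAA, and that of Tcp11l1 held none of the motifs. Heat shock elements of 3 alternating units with 2 free bases between units (either orientation, 0.603% of windows), TGACGTCA (the CRE, 1.79%) and CACGTG (an E-box, 7.15%) were in no window of the 6 genes. TTCNNGAA and GAANNTTC can overlap each other and the forms of 3 units. A match of letters is a description of the sequence and does not show that a factor binds there, and these windows say nothing of sites elsewhere.

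The likeness extends into the transcripts, over less of Tcp10c, which bears on how far the counts of the copies can be kept apart. The longest protein-coding transcripts of Tcp10a and Tcp10b (GENCODE M21) were identical at 98.9% of 2587 aligned bases. Tcp10c was identical to Tcp10a at 97.1% of 1849 aligned bases and to Tcp10b at 97.0% of 1856, with 319 bases in gaps in each alignment. The transcripts are 2589 (Tcp10a), 2588 (Tcp10b) and 2528 bases (Tcp10c) long, so part of each lies outside the bases aligned with Tcp10c. Of the 100-base stretches of each transcript, 62.4% in Tcp10a, 56.1% in Tcp10b and 56.8% in Tcp10c were found in no transcript of another gene, and all the shared ones were shared within the Tcp10 family. With 50-base stretches the unique share was 35.2%, 30.2% and 34.2%, and with 150 bases it was 78.1%, 73.9% and 70.8%. No source used here gives the read length or how reads that match several copies were handled, so the split among the copies is uncertain, whereas their sum depends on it less. Tcp11 shared stretches with AC132460.1 and Gm7430, which were not analysed here, and 81.6% of its 100-base stretches were unique. In Tcp11l1 and Tcp11l2 100% of the stretches were unique at all 3 lengths.

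The 3 Tcp10 copies were close to silent in the knockout libraries. The unit throughout is the authors' normalised read count, the number of reads on a gene divided by 1 size factor per library. For Tcp10a it was 554 (control 1) and 1493 (control 2) against 9.02 (knockout 1) and 15.4 (knockout 3). Both controls were well above both knockouts, by 36-fold for the closest pair of libraries and 166-fold for the farthest. The mean was 1024 ± 665 in the controls and 12.2 ± 4.49 in the knockouts (SD, n = 2), which is 1.19% of the control level.

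Tcp10b had 213 and 864 in controls 1 and 2, against 1 and 5.12 in knockouts 1 and 3. The knockout values rest on 1 read and 5 reads. Its mean was 539 ± 460 in the controls and 3.06 ± 2.91 in the knockouts (SD, n = 2), and the ratio between a control and a knockout library ran from 41.6 to 862. Tcp10c had 313 and 980 in the controls and no read in either knockout. Taken against a floor of 3 reads over the knockout group, a mean value of 1.52, Tcp10c was at least 425-fold lower, and at least 206-fold lower with control 1 alone or 645-fold with control 2 alone.

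**Figure D1:**
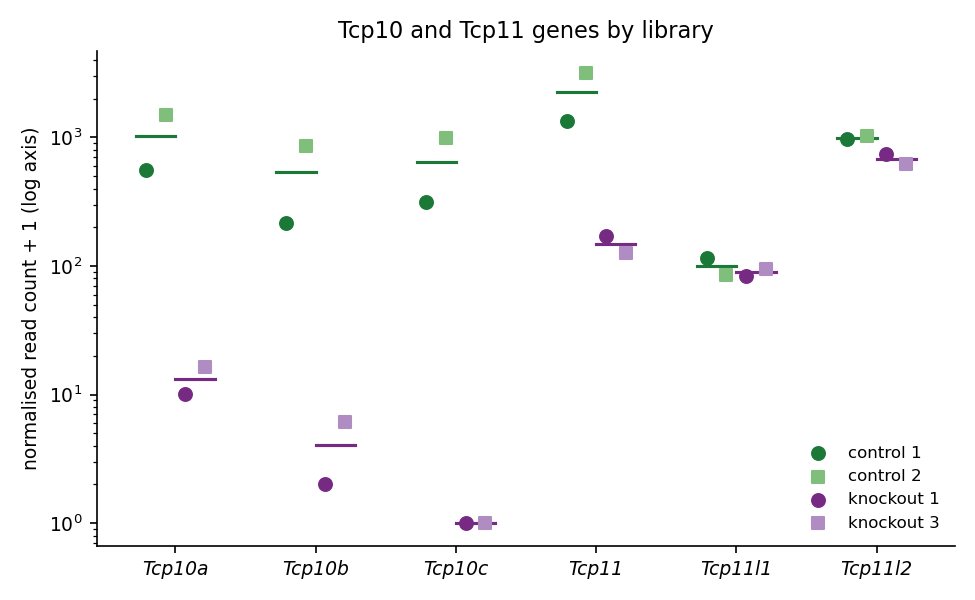
Normalised read count plus 1, on a log axis, for each of the 6 genes in the 4 libraries, with a line at each group mean. The Tcp10 copies and Tcp11 show a gap between the groups and a wide distance between the controls, Tcp11l2 shows a narrow gap, and the groups of Tcp11l1 overlap.

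Summed over the copies, which leaves the split of shared reads aside, Tcp10 stood at 1080 and 3337 in the controls, against 10.02 and 20.5 in the knockouts. The group means of the sum differed by 145-fold, with library pairs between 52.7-fold and 333-fold. Within the sum, the copies held unequal shares. Tcp10a took 51.3% of the Tcp10 reads in control 1 (exact Clopper-Pearson 95% interval 48.3% to 54.2%) and 44.8% in control 2 (43.1% to 46.5%). Tcp10b took 19.7% (17.4% to 22.2%) and 25.9% (24.4% to 27.4%), and Tcp10c took 29.0% (26.3% to 31.8%) and 29.4% (27.8% to 30.9%). The shares of Tcp10c in the controls lay within each other's intervals, while those of Tcp10a and of Tcp10b did not. These intervals cover counting error only.

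What remained in the knockouts was mostly assigned to Tcp10a. It had 9 of the 10 Tcp10 reads in knockout 1 and 15 of the 20 in knockout 3. Over both knockouts its share was 80% (exact 95% interval 61.4% to 92.3%), against 46.4% (44.9% to 47.8%) over both controls. The pooled intervals leave out differences between libraries. By library, the interval of Tcp10a was 55.5% to 99.7% in knockout 1 and 50.9% to 91.3% in knockout 3. The interval of knockout 3 covers the 51.3% of control 1. Tcp10b had 6 of 30 reads, or 20% (7.71% to 38.6%), against 24.4% (23.1% to 25.6%). Tcp10c had 0 of 30 reads, which allows a share of up to 11.6% by the same interval, below its 29.3% (27.9% to 30.6%) in the controls. In knockout 3 alone its interval reached 16.8%. In knockout 1 alone it reached 30.8%, above its share in either control. With 30 reads in all and shared stretches among the copies, how reads were assigned was not tested as a part of these differences in share.

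**Figure D2:**
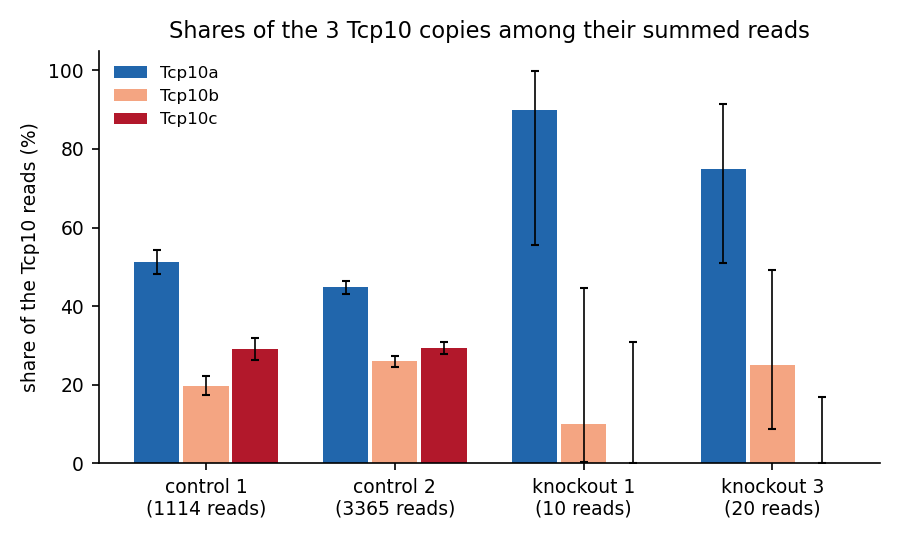
Share of each Tcp10 copy among the reads of the 3 copies together, in percent, per library, with exact 95% intervals for counting error. In the knockouts, with 10 and 20 reads in all, Tcp10a holds most of them and Tcp10c holds none.

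Tcp11 kept a measurable level in the knockouts. The controls had 1332 and 3152 normalised reads, and knockouts 1 and 3 had 171 and 125. The groups did not overlap, and the closest pair of libraries differed by 7.77-fold and the farthest by 25.2-fold. The mean was 2242 ± 1287 in the controls and 148 ± 32.8 in the knockouts (SD, n = 2), so 6.61% of the control level remained, more than for any Tcp10 copy.

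The paralogs of Tcp11 on other chromosomes had a different pattern. Tcp11l2 had 971 and 1015 in the controls, 748 in knockout 1 and 619 in knockout 3, and both knockouts were below both controls. Its mean was 993 ± 31.8 in the controls and 683 ± 91.2 in the knockouts (SD, n = 2), or 68.8% of the control level. Tcp11l1 had 115, 84.3, 82.2 and 94.2 in the same order, and its groups overlapped, with means of 99.8 ± 22.0 and 88.2 ± 8.53 (SD, n = 2). The X-linked paralog Tcp11x2, which is not among the 6 genes, had 1 and 8 reads in the controls and 0 and 5 in the knockouts, and lay under the filter on low values.

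On the log2(value + 1) scale, which understates the change of low genes, the fitted log2 fold change of knockout over control was -6.15 (SE 0.44) for Tcp10a, -6.94 (SE 0.71) for Tcp10b and -3.80 (SE 0.34) for Tcp11. It was -0.54 (SE 0.12) for Tcp11l2 and -0.16 (SE 0.25) for Tcp11l1. The fitted value of Tcp10c, -9.12, depends on the added 1 because both knockouts are at 0, and it is not a bound. All 6 genes passed the filter of a mean value of at least 10, the Tcp10 copies and Tcp11 through their level in the controls. The limma test over 17480 genes called 5 of the 6 lower and none higher, where 13.5% of all tested genes were called lower and 3.28% higher, 16.8% in all. Since the genes were picked on this comparison, nothing is read from that count. The groups did not overlap in 5 of the 6, all lower in the knockouts, against 31.9% of tested genes lower without overlap and 61.7% in either direction. The median log2 fold change of the 6 was -4.98, also with Tcp10c at its bound, and that of all tested genes was 0.01. Of the 17480 genes, 43 had a lower fitted value than Tcp10b, 70 than Tcp10a and 254 than Tcp11, while 2626 were lower than Tcp11l2. The authors' deposited table gives log2 fold changes of -6.39 for Tcp10a, -7.46 for Tcp10b, -11.76 for Tcp10c, -3.92 for Tcp11, -0.54 for Tcp11l2 and -0.18 for Tcp11l1.

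These values depended on which control was used. Leaving out control 1 gave -6.87 for Tcp10a, -7.95 for Tcp10b and -4.42 for Tcp11, and leaving out control 2 gave -5.44, -5.94 and -3.18, all as log2 fold changes. For Tcp10b it was -6.14 without knockout 1 and -7.75 without knockout 3. For Tcp11l1 the sign changed without control 1, to 0.06. For Tcp11l2 it ran from -0.68 to -0.41 over the libraries left out, and limma did not call it without control 1, control 2 or knockout 3, or without the filter on low values.

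The Tcp10 copies and Tcp11 also differed between the controls. Control 2 was above control 1 by 2.70-fold for Tcp10a, 4.05-fold for Tcp10b, 3.13-fold for Tcp10c and 2.37-fold for Tcp11. For Tcp11l2 the ratio was 1.05, and for Tcp11l1 it was 0.731. A ratio of at least 2-fold on the log2(value + 1) scale was found for 4 of the 6 genes and for 5.55% of all tested genes. The pachytene markers moved the same way, as given above, and their part in the difference of the Tcp10 copies and Tcp11 was not tested. The lowest ratio of any control to any knockout library, which involves control 1, was 36 for Tcp10a and 41.6 for Tcp10b.

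**Figure D3:**
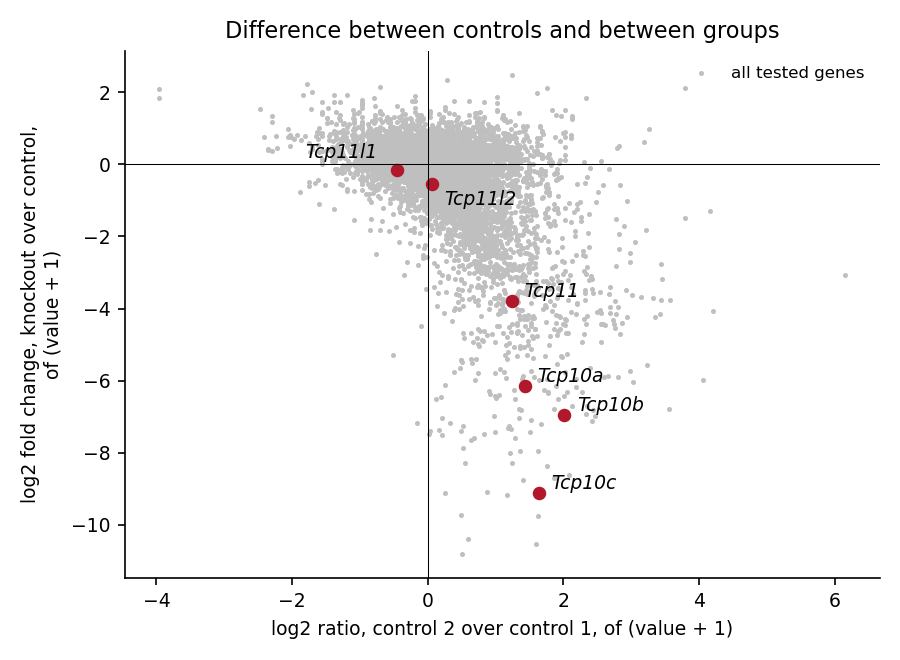
Each tested gene by its log2 ratio of control 2 over control 1 (horizontal) and its log2 fold change of knockout over control (vertical), both of value + 1, with the 6 genes in red. The Tcp10 copies and Tcp11 sit low and to the right, with control ratios on the log2 scale between 1.24 and 2.01, and Tcp11l1 and Tcp11l2 sit near the origin.

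Levels were also ordered among the genes per kilobase of the longest protein-coding transcript. In control 1 the normalised reads per kilobase were 670 for Tcp11, 356 for Tcp11l2, 214 for Tcp10a, 124 for Tcp10c, 82.4 for Tcp10b and 21.1 for Tcp11l1. In control 2 they were 1585 for Tcp11, 577 for Tcp10a, 388 for Tcp10c, 373 for Tcp11l2, 334 for Tcp10b and 15.4 for Tcp11l1. Tcp11 was first and Tcp11l1 last in both controls, and the order Tcp10a, Tcp10c, Tcp10b held in both. Over the controls the ranges of the 3 Tcp10 copies overlapped each other. That of Tcp11l2 lay within those of Tcp10a and Tcp10c and above that of Tcp10b, and its place in the order changed from one control to the other. In both knockouts the order was Tcp11l2 (274 and 227 per kilobase), Tcp11 (86.2 and 62.8), Tcp11l1 (15.0 and 17.2), Tcp10a (3.48 and 5.94), Tcp10b (0.387 and 1.98) and Tcp10c (0), with no overlap between neighbours in that order. Tcp11l1, the lowest of the 6 in the controls, thus stood above all Tcp10 copies in the knockouts. With the length of all exons of a gene in place of 1 transcript, the order was the same in each library.

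Genes with the most similar profiles were found by the Euclidean distance between log2(value + 1) profiles over the 4 libraries, each centred on its own mean. For Tcp10a these were Dnah17, a heavy chain of the outer dynein arm (distance 0.472), Adam1b of the ADAM metalloproteases (0.485) and the serine protease gene Prss59 (0.488). For Tcp10b they were the hyaluronidase gene Hyal6 (0.459), Pebp4 (0.647) and Lin7a (0.662). For Tcp10c they were Fbp1 (0.336), a gluconeogenic enzyme, the anion transporter gene Slco6c1 (0.397) and Cmtm2b (0.836). The copies were farther from each other than from these genes, with a distance of 1.10 between Tcp10a and Tcp10b, 2.47 between Tcp10b and Tcp10c and 3.01 between Tcp10a and Tcp10c. Since these genes were picked as the nearest of all genes compared, that order says little about the copies. These distances rest largely on knockout values of few or no reads.

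Tcp11 had closer matches. The nearest were Sphkap, an anchor of protein kinase A (0.0975), Ttc29, a gene of the sperm tail (0.156), and Catspere1, a subunit of the sperm calcium channel (0.174). Sphkap had 347 and 797 in the controls and 43.1 and 33.8 in the knockouts, the same shape at a lower level. The genes nearest to Tcp11l2 were Tmed4 (0.0344), Ndufaf2 (0.0419) and the crossover factor gene Msh4 (0.047), and those nearest to Tcp11l1 were Efna3 (0.0677), Pigl (0.0769) and Tmed2b (0.0789).

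The position of the genes was compared with the values of their neighbours, the nearest 5 protein-coding genes on each side in the RefSeq order of GRCm38.p6. Of 53 such neighbours 42 were tested, 9 were called lower by limma (Benjamini-Hochberg adjusted p under 0.05) and 0 higher, with a median log2 fold change of -0.03. At an unadjusted p under 0.05 these were 11 lower and 2 higher. edgeR called 8 lower and 0 higher, DESeq2 9 and 0, and limma with library totals alone 6 and 2. Without the filter on low values limma called 2 lower, Rsph3b and Tcte2, and without its mean-variance trend 0. Between 4 and 7 were called lower when 1 library was left out, with 4 when that library was control 2. Around Tcp11, 1 of 10 was called lower, Zfp523 at -0.31 (limma adjusted p = 0.0332), a call lost with library totals alone (0.15). The call was also lost whichever library was left out, where its log2 fold change ran from -0.35 to -0.27. The other neighbours had values from -0.16 to 0.43. Tcp11 thus lay apart from genes on either side by more than 3 log2 units. Around Tcp10a, 2 of 7 tested neighbours fell, both radial spoke genes: Rsph3a fell by 1.5 and Rsph3b fell by 1.06 on the log2 scale (limma adjusted p = 0.00256 and 0.00125). The Rsph3a call was lost without the filter on low values (limma adjusted p = 0.0653). How far the reads of Rsph3a and Rsph3b can be kept apart was not examined, so they may not count as separate genes. Between Tcp10b and Tcp10c no gene was tested, since Unc93a was under the filter and the Smok2a and Smok2b kinase genes were not analysed here. Next to Tcp10c, Tcte2 fell by 2.80 (limma adjusted p = 0.00115) and the junction gene Afdn had -0.14. The largest change of any neighbour was that of Fhl4, a LIM domain gene near Tcp11l2, which fell by 2.84 (limma adjusted p = 0.0011). Its call was lost without the filter on low values (limma adjusted p = 0.0539). Over chromosome 17 as a whole, 117 of 855 tested genes were called lower, or 13.7%, against 13.5% of all tested genes.

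**Figure D4:**
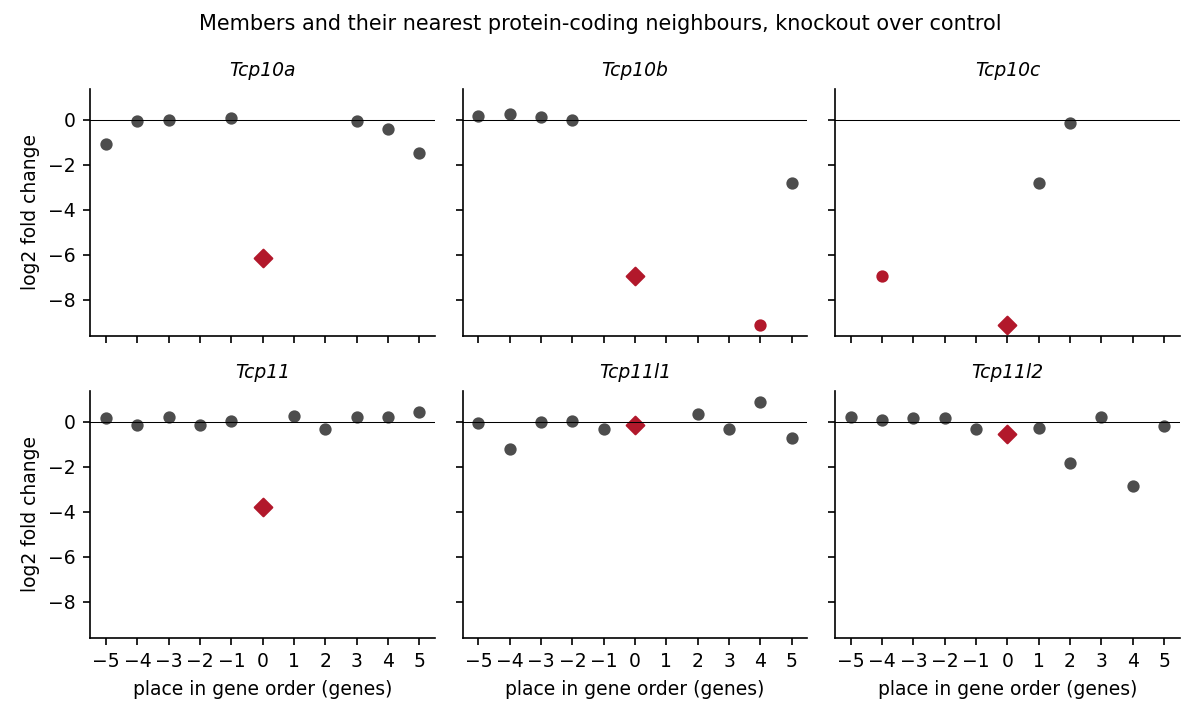
Log2 fold change of knockout over control, of value + 1, for each of the 6 genes (diamond at place 0) and its tested protein-coding neighbours by place in the gene order, where red circles are other Tcp10 copies. Tcp11 and the Tcp10 copies lie below all their tested neighbours outside the family, of which the lowest is Tcte2 at -2.80, while Tcp11l2 lies above Rfx4 and Fhl4.

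Other genes with t-complex names or roles were read from a list of 20, of which 12 were tested. limma called 7 of the 12 lower and 0 higher (8 and 1 at an unadjusted p under 0.05), where 13.5% of all tested genes were called lower, and the median log2 fold change was -0.69. edgeR also called 7 lower and DESeq2 6, with 0 higher in both. Without the filter on low values limma called 2 lower, Tcp1 and Tcte2, and without its mean-variance trend 0. The count of lower calls was 2 without control 2, 4 without knockout 3, and 6 without control 1 or without knockout 1. Dynlt1a, Dynlt1c and Dynlt1f were among the genes called lower by limma, and Dynlt1b was not called. How far the reads of these Dynlt1 genes can be kept apart was not examined, so they may not count as separate genes. Tcte1, which encodes an axonemal protein of the nexin-dynein regulatory complex, had 108 and 497 in the controls and 21.0 and 10.2 in the knockouts. Its log2 fold change was -3.88 (SE 0.65, limma adjusted p = 0.00467), close to that of Tcp11, and its call was lost without control 2 (-2.79, adjusted p = 0.0623). Dynlt2a3, of the dynein light chains, fell by 2.89 (adjusted p = 0.00123), and its call was also lost without control 2 (adjusted p = 0.0519). Tcp1, a subunit of the CCT chaperonin found throughout the body, fell by 0.89 (adjusted p = 0.00077). The tested genes known as distorters of transmission did not share these values: Tagap1 had -0.06, Tiam2 had -0.05 and Fgd2 had 1.31, and none was called (adjusted p = 0.671, 0.867 and 0.1). The value of Fgd2 rests on low levels, 12.6 and 7.93 in the controls and 28.1 and 24.6 in the knockouts.

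Cenpj, whose product shares a domain with TCP10, and genes that work with it were read from a list of 11 names. Cp110 and Cpap on it are other names of Ccp110 and Cenpj, so the list held 9 genes. Of 9 tested genes of centriole duplication 5 were called lower by limma and 0 higher (8 and 0 at an unadjusted p under 0.05), against 13.5% and 3.28% of all tested genes, with a median of -0.38. edgeR called 4 lower and DESeq2 5, with 0 higher in both. Without the filter on low values limma called 2 lower, Ccp110 and Cep120, and without its mean-variance trend 0. The count of lower calls was 3 without control 1, 1 without control 2 or knockout 1, and 2 without knockout 3 or with library totals alone. Cenpj had 902 and 778 in the controls and 643 and 676 in the knockouts, a log2 fold change of -0.34 that was not called (adjusted p = 0.075). Stil, its partner, fell by 0.40 (adjusted p = 0.0326), a call lost whichever library was left out. Its log2 fold change then ran from -0.46 to -0.34. Such a fit leaves 1 library in a group, so a lost call need not mean a smaller change. The largest change among them was that of Ccp110, a cap of the centriole end, which fell by 0.91 (adjusted p = 0.000572). Sass6, of the centriole cartwheel, had -0.53 and was not called (adjusted p = 0.16). Cep120, of centriole elongation, fell by 0.50 (adjusted p = 0.00554), a call lost without control 2 (0.0623) and without knockout 1 (0.0538).

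Around Tcp11, 9 of 14 genes of cyclic AMP signalling, sperm ion channels and tail fibres were tested. limma called 3 lower and 1 higher, against 13.5% and 3.28% of all tested genes, and the median was -0.09, which became 0.02 with library totals alone. Without the filter on low values, or without its mean-variance trend, it called 0 lower and 0 higher. It called 3 lower without control 1 or control 2, 2 without knockout 1 or knockout 3, and 0 higher in each of these. Adcy10, the soluble adenylyl cyclase of sperm, had 180 and 505 in the controls and 47.1 and 41.0 in the knockouts, and fell by 2.75 (adjusted p = 0.00307). Catsper2, of the sperm calcium channel, fell by 1.46 (adjusted p = 0.0102) and Odf2, of the outer dense fibres, fell by 1.39 (adjusted p = 0.00223). The Catsper2 call was lost without knockout 1 (adjusted p = 0.0513) and without knockout 3 (0.0771). The kinase subunit Prkar2a, found in many tissues, rose by 0.38 (adjusted p = 0.0392), a call lost whichever library was left out. Tcp11 had a lower log2 fold change than each of these 9 genes, a difference that was not tested.

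**Figure D5:**
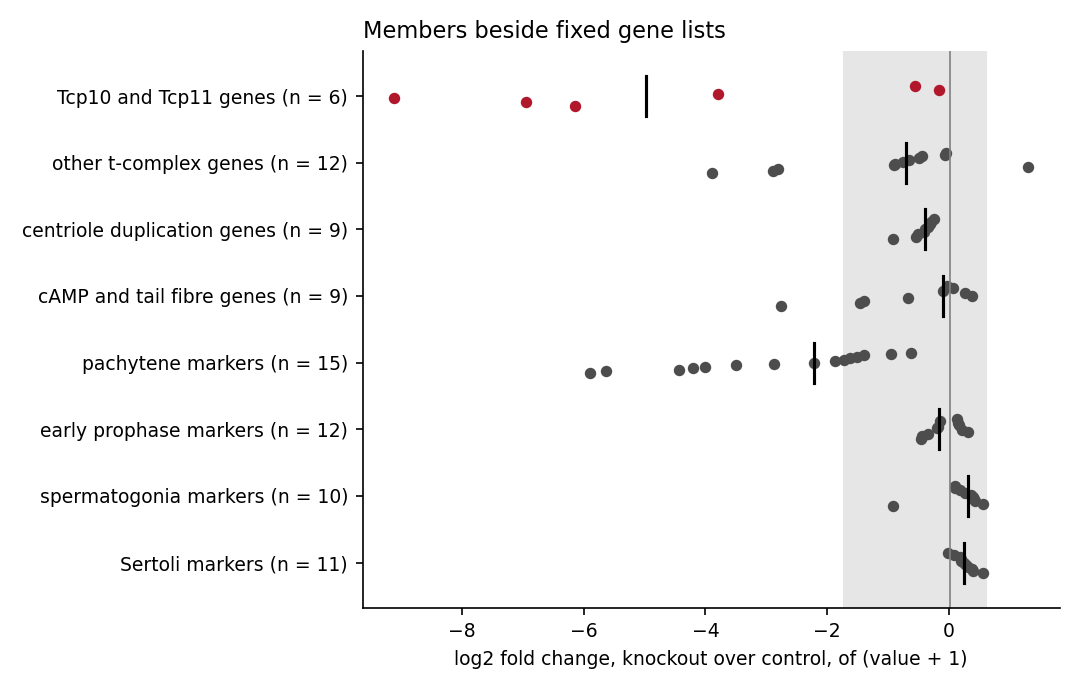
Log2 fold change of knockout over control, of value + 1, for the 6 genes (red) and the tested genes of the lists, 1 point a gene, with a bar at each median. The shaded band spans the 5th to 95th percentile of all tested genes, -1.73 to 0.61, and the 3 Tcp10 copies and Tcp11 lie outside it.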

How the data were processed

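Per the labels, NEBNext Ultra kits turned total RNA of whole testes into libraries. Tools named in the submitters' processing notes are Bowtie2, featureCounts, cutadapt and DESeq2, with build mm39. Versions, settings, strand and read length are not given in the sources used. The deposited signal is a gene's reads divided by 1 size factor per library. In each of the 4 libraries 100% of values were whole multiples of the smallest value, within 1e-06 of a whole number, which recovered the reads. The authors also deposited log2 fold changes, of which some are quoted, and a score (their test statistic) and p-value for each gene, which are not.

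Log2(value + 1) was fitted with limma 3.58.1 (R 4.3.3, with its mean-variance trend) to the 17480 genes whose mean reached 10, in 2 groups of 2 libraries. It has 6.3 prior against 2 residual degrees of freedom, so its p-values rest largely on variance pooled over genes, and calls needed an adjusted p (Benjamini-Hochberg) under 0.05. The fit was tested on simulated data. Alternatives were edgeR 4.0.16 and DESeq2 1.42.0 on the recovered reads, other scalings, pseudocounts and filters, and leaving out each library. Genes outside the 6 were named by rule: the 3 largest changes of the t-complex, centriole, cyclic AMP and pachytene lists, the 3 most similar profiles, and the largest change among neighbours. Others were named for their role or position, and the other marker lists are given by counts. The 6 genes, the lists and the motifs were chosen with earlier results of these data known. Sequences were aligned with Biopython 1.88.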

Additional observations from a re-analysis of the deposited data

How the results depend on the processing

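The fold changes of Tcp10a, Tcp10b, Tcp11 and Tcp11l2 kept their direction under every setting tried. With 2 libraries per group, leaving 1 out cannot move a fold by more than the spread between replicates, so that comparison says nothing of stability. Leaving 1 out also leaves 1 library in a group, so a call can be lost where the fold change does not shrink. Leaving out 1 library gave ranges of -6.87 to -5.44 for Tcp10a, -7.95 to -5.94 for Tcp10b, -9.94 to -8.30 for Tcp10c, -4.42 to -3.18 for Tcp11, -0.39 to 0.06 for Tcp11l1 and -0.68 to -0.41 for Tcp11l2. Without control 1 the sign of Tcp11l1 changed, to 0.0616. Tcp10c, at 0 in both knockouts, had a fitted value of -10.12 with a pseudocount of 0.5, -6.81 with 5, -12.33 by edgeR and -11.76 by DESeq2.

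Over the whole table limma called 2366 genes lower and 573 higher. Without the filter on low values it called 815 and 37, and without the mean-variance trend 40 and 0. At an unadjusted p under 0.05, limma without the trend had 1456 genes higher, edgeR 1950 and DESeq2 1296. By adjusted p, edgeR called 517 higher and DESeq2 574. The cause of the lower counts was not tested. With library totals alone 1513 were higher, so that lower calls were 57.0% in place of 80.5%, and the median of all genes moved from 0.01 to 0.12. Without 1 library the counts ran from 889 to 2096 lower and from 31 to 337 higher. Of the 6 genes 5 were called lower as reported, 4 (without Tcp11l2) when the filter, control 1, control 2 or knockout 3 was left out, and 0 without the trend, where 5 had an unadjusted p under 0.05. No paired analysis was possible because the analysed groups share only replicate number 1.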
